A study of Mus musculus with 26 samples.

Results

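The balance of 2 histone marks, total H3K4me3 and total H3K27me3, was measured in E14 mouse embryonic stem cells at the regions listed for the K27-K4 reChIP, a sequential ChIP in which chromatin bound by the H3K27me3 antibody was eluted and bound again by the H3K4me3 antibody. All 36235 regions of that list were taken, of 301986 distinct regions over the 12 region lists of the series, and no region was chosen by its balance. The study reports fewer K27-K4 peaks in E14, so the list is not its filtered peak set. The balance of a region is its log2 value for total H3K4me3 minus its log2 value for total H3K27me3. It is positive where H3K4me3 is higher, and 1 unit is a doubling of one mark against the other. The cells were wild-type and non-clonal, were grown with serum and LIF, and gave 2 biological replicates, 1 from each of 2 sequencing batches. Each replicate holds an in-line total of each mark, which is chromatin set aside after the first ChIP, and replicate 1 also holds the single IgG-IgG control. The study describes the in-line totals as noisier than the reChIPs, probably for lack of starting material, with few peaks called on them. It classified its bivalent peaks with independent totals from more cells, which were not used here. WT clones 57 and 58 are clonal wild-type lines derived from E14, each a single clone. They were profiled in the same way in another sequencing batch, and their totals at the same regions served as separate libraries. According to the study's methods, the H3K4me3 antibody has been reported to bind H3K4me2 as well, so the H3K4me3 values may hold both.

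H3K4me3 is laid down by the Trithorax-related MLL and SET1 complexes, mostly at CpG-rich promoters, and marks promoters that are active or ready for activation. H3K27me3 is laid down by Polycomb repressive complex 2 and is read by Polycomb repressive complex 1, and it covers silent genes, often in broad domains. In embryonic stem cells many promoters of developmental regulators carry both marks, a state called bivalent chromatin. The balance of the totals orders regions by the signal of one antibody against the other over the whole cell population. Since the antibodies and libraries differ, a balance of 0 does not mean equal amounts of the marks. The balance does not say whether both are on the same nucleosome, which is what the reChIP addresses, and in bulk chromatin a mark present in fewer cells cannot be told apart from a weaker mark in each cell.

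Promoter sequence from the leading genes of each group shows the CpG content along which the balance varied. These are the 250 bases before the RefSeq start site (GRCm38.p6, the build of the deposited coordinates), 5′ to 3′ on the gene's strand, with every CG in capitals. The gene names head the lines of a pair with H3K4me3 far higher (Taok1 at chr11:77607816-77608065 on the minus strand and Nme1 at chr11:93968026-93968275 on the minus strand), a pair balanced near 0 (Olfm2 at chr9:20727004-20727253 on the minus strand and Metrnl at chr11:121702177-121702426 on the plus strand) and a pair with H3K27me3 higher (Tph1 at chr7:46667378-46667627 on the minus strand and Lingo4 at chr3:94398969-94399218 on the plus strand).
Taok1: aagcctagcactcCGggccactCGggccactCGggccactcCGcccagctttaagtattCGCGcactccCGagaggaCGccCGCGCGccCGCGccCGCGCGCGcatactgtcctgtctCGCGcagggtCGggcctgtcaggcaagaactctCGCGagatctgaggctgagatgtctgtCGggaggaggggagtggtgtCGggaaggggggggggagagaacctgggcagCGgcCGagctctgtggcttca
Nme1: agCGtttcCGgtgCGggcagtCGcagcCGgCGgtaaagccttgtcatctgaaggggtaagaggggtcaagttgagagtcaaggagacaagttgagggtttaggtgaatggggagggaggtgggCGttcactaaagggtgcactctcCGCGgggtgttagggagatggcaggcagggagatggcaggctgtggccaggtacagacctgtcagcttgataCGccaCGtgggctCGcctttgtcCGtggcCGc
Olfm2: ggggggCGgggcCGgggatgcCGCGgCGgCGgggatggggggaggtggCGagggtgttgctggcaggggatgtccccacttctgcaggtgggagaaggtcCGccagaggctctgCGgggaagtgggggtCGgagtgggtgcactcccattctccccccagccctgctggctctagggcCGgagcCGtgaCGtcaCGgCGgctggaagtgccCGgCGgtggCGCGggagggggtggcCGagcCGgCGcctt
Metrnl: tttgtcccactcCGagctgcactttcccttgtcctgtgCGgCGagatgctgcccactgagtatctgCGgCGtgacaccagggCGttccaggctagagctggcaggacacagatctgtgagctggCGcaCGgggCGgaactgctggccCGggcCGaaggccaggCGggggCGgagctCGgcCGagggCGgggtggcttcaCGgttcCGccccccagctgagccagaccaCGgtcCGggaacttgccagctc
Tph1: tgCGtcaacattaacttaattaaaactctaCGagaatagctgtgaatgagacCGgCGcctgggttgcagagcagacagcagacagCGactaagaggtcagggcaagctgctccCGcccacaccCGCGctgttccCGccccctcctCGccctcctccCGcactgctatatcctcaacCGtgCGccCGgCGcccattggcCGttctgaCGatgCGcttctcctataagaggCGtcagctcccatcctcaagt
Lingo4: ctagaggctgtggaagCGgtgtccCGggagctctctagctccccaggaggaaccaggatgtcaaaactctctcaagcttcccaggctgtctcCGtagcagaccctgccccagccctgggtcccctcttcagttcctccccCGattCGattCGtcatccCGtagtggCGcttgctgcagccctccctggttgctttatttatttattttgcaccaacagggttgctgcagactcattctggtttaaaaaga

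These windows hold 26 CG for Taok1, 14 for Nme1, 22 for Olfm2, 20 for Metrnl, 19 for Tph1 and 8 for Lingo4. Of 32851 such windows in the RefSeq table, 92.1% hold at least 1 CG (the motif reads the same on both strands), and the median window holds 6. A window overlapping the promoter region was found for 12820 of the 17300 genes with a promoter region. Genes whose region had H3K4me3 higher had a median of 17 CG (n = 8528), balanced genes 13 (n = 605) and genes with H3K27me3 higher 7 (n = 91), beside 16 over all 12820 genes. Tph1 lies well above the median of its group and Nme1 below that of its own, so single promoters do not follow the order of the medians.

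In replicate 1 13705151 reads stood behind total H3K4me3 and 12294689 behind total H3K27me3, in replicate 2 29588817 and 31847411, and 8819677 behind the IgG-IgG control. A median region held 37 and 87 reads of total H3K4me3 and 17 and 40 reads of total H3K27me3 in replicates 1 and 2. The regions took 15.7% (replicate 1) and 18.6% (replicate 2) of the reads of total H3K4me3. They took 10.0% and 9.73% of those of total H3K27me3, against 8.85% for IgG-IgG. The H3K27me3 totals thus placed little more of their reads in these regions than the control did. The clone totals had between 15601152 and 18918370 reads. In WT clone 57 the share of total H3K4me3 reads in the regions was 42.8% and in clone 58 it was 20.4%, so the clone 57 library stood apart, and values are given for both clones.

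Most regions leaned to H3K4me3. The median log2 balance was 0.55 in replicate 1 and 0.71 in replicate 2, and across regions the balances of the replicates correlated with r = 0.878, where the points share libraries and are not independent. The middle 90% of regions lay between -1.09 and 3.60. By limma with Benjamini-Hochberg adjustment over the 36235 regions, 14572 regions (40.2%) had H3K4me3 higher by more than 1 log2 unit at an adjusted p under 0.05, and these are called the H3K4me3 end. Another 1967 regions (5.43%) had H3K27me3 higher by the same rule and are called the H3K27me3 end, which makes 16539 calls in either direction (45.6%). At 1923 regions (5.31%) the marks differed by at most 0.25 log2 units in each replicate, and these are called balanced. The other 17773 regions lay between and passed neither rule. H3K4me3 took 88.1% of the calls with the values as deposited. This split and the zero of the balance rest on the scaling between libraries: with each library centred on its median region, the median balance was -0.11, the calls were 10431 regions (28.8%) with H3K4me3 higher and 8437 (23.3%) with H3K27me3 higher, and H3K4me3 took 55.3% of the calls. With quantile normalisation it took 49.4%. Centring shifts every region by the same amount and leaves their order along the balance as it is.

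**Figure D1:**
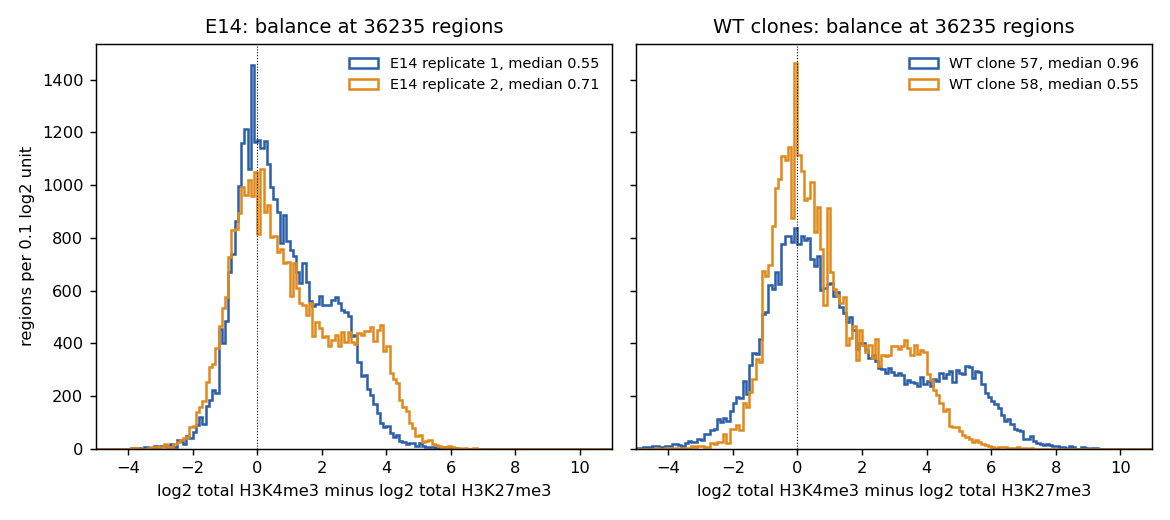
Number of regions (vertical axis, per 0.1 log2 unit) at each log2 balance of total H3K4me3 and total H3K27me3 (horizontal axis), for the E14 replicates on the left and WT clones 57 and 58 on the right. The curves peak near 0 and have a shoulder of H3K4me3-rich regions that reaches further in E14 replicate 2 (95th percentile 4.08) than in replicate 1 (3.23), and furthest in clone 57 (5.83).

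The calls were made on both replicates together, so their agreement in called regions is largely fixed by the rule. As a description, both replicates exceeded 1 log2 unit in 13010 regions (89.3%) of the H3K4me3 end and in 1082 regions (55.0%) of the H3K27me3 end. With the values as deposited, the median balance of 2.45 at the H3K4me3 end is a 5.48-fold excess of H3K4me3, and the median of -1.30 at the H3K27me3 end is a 2.47-fold excess of H3K27me3. With each library centred these medians were 1.74 and -2.02, so which end lay further from 0 depends on the scaling. The median standard error of a region's balance was 0.348 at the H3K4me3 end, 0.336 at the H3K27me3 end and 0.285 among balanced regions, so for a typical balanced region the error was wider than the 0.25 units of the rule. At 5 regions of the H3K4me3 end no H3K27me3 read was counted in either replicate, and at 140 there were at most 3 in all.

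The signal over IgG-IgG set the 3 groups apart in another way. Every enrichment here is a log2 value minus the log2 value of the single IgG-IgG library, which cancels from the balance itself. At the H3K4me3 end the median enrichment of total H3K4me3 was 1.26 in replicate 1 and 1.73 in replicate 2, and total H3K27me3 was below the control at -0.84 and -1.09. At the H3K27me3 end total H3K27me3 stood at 1.33 and 1.37 and total H3K4me3 at 0.10 and -0.10, that is, at the level of the control. At balanced regions each mark was moderately above the control, H3K4me3 at 0.57 and 0.54 and H3K27me3 at 0.55 and 0.53. Both marks exceeded the control in both replicates at 1505 of the 1923 balanced regions (78.3%), at 984 regions of the H3K4me3 end (6.75%) and at 678 of the H3K27me3 end (34.5%). Over all 36235 regions this share was 35.0%. It counts any excess over 1 control library, and 111 balanced regions had neither mark above the control in either replicate.

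**Figure D2:**
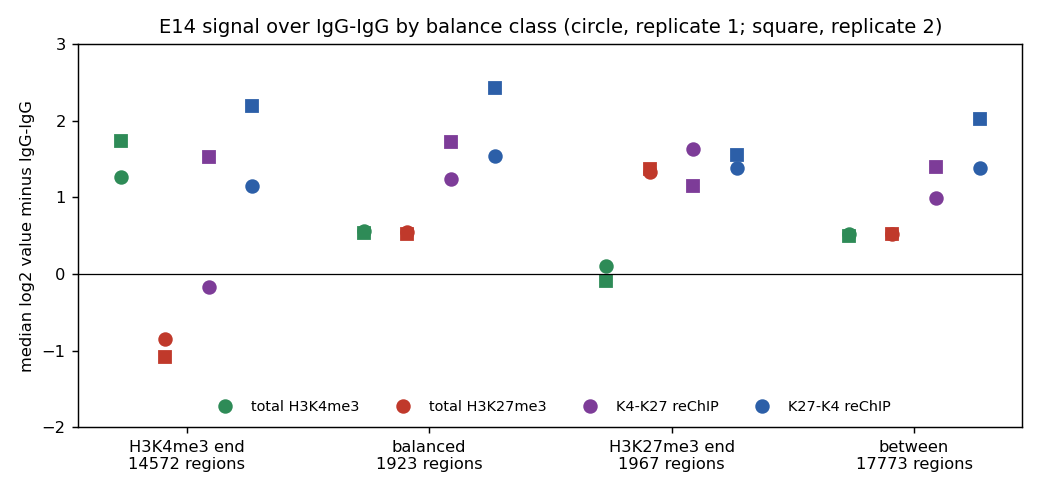
Median log2 value minus IgG-IgG (vertical axis) of each kind of E14 library (totals and both reChIPs) in the 4 groups of regions, with circles for replicate 1 and squares for replicate 2. Total H3K27me3 falls below the control at the H3K4me3 end (-0.84 and -1.09) and both totals meet near 0.55 at balanced regions.

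The reChIP signals took no part in the balance. The K27-K4 enrichment, on which the regions were listed, had medians of 1.15 and 2.20 at the H3K4me3 end, 1.55 and 2.42 at balanced regions and 1.39 and 1.56 at the H3K27me3 end. For K4-K27, the reverse order, the medians were -0.17 and 1.52 at the H3K4me3 end, 1.23 and 1.72 at balanced regions and 1.64 and 1.15 at the H3K27me3 end. In K4-K27 replicate 1 the signal rose from the H3K4me3 end to the H3K27me3 end, and in replicate 2 the H3K27me3 end was the lowest. These libraries had 9941714 and 34441552 reads. Among balanced regions at promoters K27-K4 reached 2.26 and 3.63 and K4-K27 2.12 and 2.57, above both ends in each of these libraries. Of the balanced regions 69.9% overlapped a region of the K4-K27 list, against 66.2% at the H3K4me3 end, 49.7% at the H3K27me3 end and 60.3% of all regions.

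Promoters, defined as 1.5 kb either side of a RefSeq start site, were touched by 15112 of the 36235 regions. They made up 63.3% of the H3K4me3 end, 40.3% of balanced regions and 10.1% of the H3K27me3 end, against 41.7% of all regions. Read the other way, 61.0% of promoter regions were called with H3K4me3 higher, 1.32% with H3K27me3 higher and 5.13% were balanced. Away from promoters 25.3% of 21123 regions were called for H3K4me3 and 8.37% for H3K27me3. The 1768 H3K27me3-end regions away from promoters therefore outnumber the 199 at promoters. Of the whole H3K27me3 end 53.1% overlapped a gene and 25.4% lay more than 50 kb from any start site, whereas 87.9% and 7.51% of the H3K4me3 end did. Regions also listed for total H3K4me3 made up 81.5% of the H3K4me3 end and 1.42% of the H3K27me3 end, and regions also listed for total H3K27me3 made up 1.09% and 62.3%. Those lists were made from the same totals and are no independent evidence. Balanced regions overlapped both lists in 24.0% of cases and neither in 56.2%.

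Width and CpG content are given as a description. Width is tied to the rule for balanced regions, which asks for little scatter between replicates and so for many reads. The median width was 3450 bp among balanced regions, 2700 bp at the H3K4me3 end and 1500 bp at the H3K27me3 end, and at promoters the balanced median was 6600 bp against 3300 bp and 3000 bp. Of 1471 regions 10 kb or wider, 13.5% were balanced, 21.6% had H3K4me3 higher and 2.79% had H3K27me3 higher. At 20 kb or wider (250 regions) the shares were 13.6%, 13.2% and 3.20%. The H3K4me3 share was highest, 51.8%, in regions of 2 to 5 kb. In regions under 1 kb, 592 of 4928 regions were called for H3K27me3. Away from promoters, H3K27me3-end regions were a median of 1350 bp wide, with medians of 11 and 19 reads of H3K4me3 and 22 and 58 reads of H3K27me3, so they rest on fewer reads than the promoter regions. The ratio of observed to expected CpG had medians of 0.425 at the H3K4me3 end, 0.329 among balanced regions and 0.243 at the H3K27me3 end. In the quintile of regions richest in CpG, 74.7% were called for H3K4me3 and 0.662% for H3K27me3, and in the poorest quintile 22.3% and 14.5%. Values are averages over a whole region, so a narrow peak of one mark within a broad region of the other is diluted by the width.

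**Figure D3:**
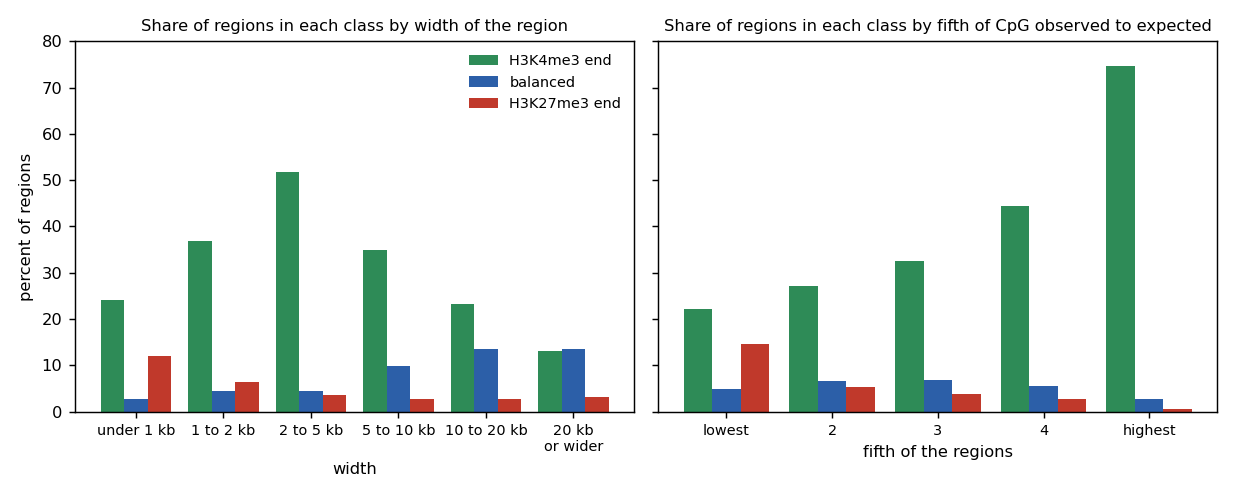
Percent of regions at the H3K4me3 end, balanced and at the H3K27me3 end (bars, from 0) in bins of region width on the left and in quintiles of the CpG observed to expected ratio on the right. The H3K4me3 share rises with CpG content from 22.3% to 74.7%, and the balanced share is 13.4% to 13.6% in regions 10 kb or wider.

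The balance was also computed in WT clones 57 and 58, whose libraries had no part in the E14 values. By the same rule in limma, 13567 regions (37.4%) had H3K4me3 higher in the clones and 1733 (4.78%) had H3K27me3 higher. Of the 14572 E14 regions at the H3K4me3 end, 12280 were called the same way in the clones and 1 the opposite way, and 98.2% were positive in both clones. Of the 1967 at the H3K27me3 end, 930 were called the same way and 1 the opposite way, and 90.4% were negative in both. Among E14 balanced regions, 38 were called for H3K4me3 and 13 for H3K27me3 in the clones, and the median balance was 0.13 in clone 57 and -0.10 in clone 58. The clone calls depended on single libraries. Without the clone 57 H3K27me3 library 5171 and 168 regions were called, and without that of clone 58 7404 and 563.

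The identity of the cells was checked at marker genes. Of 8 embryonic stem cell markers 7 had a promoter region. Of these 6 were called for H3K4me3, beside 63.6% of all genes with a promoter region. They were Pou5f1, Nanog, Sox2, Klf4, Zfp42 and Tdgf1, with balances between 2.76 and 3.57. Esrrb, which encodes a nuclear receptor of the pluripotency network, did not follow them. Its region had H3K4me3 at 0.18 and 0.10 and H3K27me3 at 0.63 and 0.53, a balance of -0.44 (SE 0.157, adjusted p = 0.0348 by limma) that was also negative in both clones. None of 6 primitive endoderm markers was called either way, with balances between -0.33 (Gata4) and -0.07 (Col4a1), and none of the 5 fibroblast markers with a region, which ranged from -0.73 (Prrx1) to 0.87 (Thy1). A wider list of 20 genes of both cell types, 18 of them with a region, held 4 that were called for H3K4me3: the extracellular matrix genes Fn1 (3.05), Lama1 (1.43) and Lamb1 (1.04) and the intermediate filament gene Vim (1.57).

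A promoter region was found for 17300 of 26109 RefSeq genes, of which 63.6% were called for H3K4me3, 0.948% for H3K27me3 and 4.98% were balanced, and the median balance over these genes was 1.94. Among promoter regions with a mean of the 4 totals above the median of such regions, the 15 with the highest balance belonged to Taok1, Nme1, Nol11, Cltc, Atp6v1b2 with Slc18a1, Zfp346, Nipsnap1, Arpp19, Mrps31, Cdk12, Psmd11, Zfp930, Cct6b with Zfp830, Nap1l4 and Zfp729a. Their balances lay between 4.03 and 4.69, with standard errors between 0.255 and 0.466 and adjusted p (limma) of at most 4.10e-05, and 15 of 15 were called the same way in the WT clones. Their regions were narrow, from 1.05 kb up to 3.6 kb.

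At Taok1, which encodes a kinase of the MAP kinase cascades (chr11:77606251-77608800), H3K4me3 was 2.09 and 2.44 and H3K27me3 was -2.97 and -1.88 log2 RPM per kb (reads scaled to the mapped reads of the library and the region's length, the deposited unit) in replicates 1 and 2, with IgG-IgG at -0.91. Its balance was 4.69 (SE 0.364). At Cltc, the clathrin heavy chain of endocytic vesicles, H3K4me3 was 1.77 and 2.38 and H3K27me3 was -2.34 and -1.96, and at Nol11, a nucleolar protein of ribosome biogenesis, H3K4me3 was 2.13 and 2.56 and H3K27me3 was -1.54 and -2.26. The marks were far apart in both replicates, and replicate 2 was the higher for H3K4me3 at all 3. The depth behind the low mark was small, between 4 and 11 reads of H3K27me3 per region in replicate 1 and between 6 and 28 in replicate 2 over the 15 regions, so their order among themselves is not resolved. Cdk12, a kinase of the RNA polymerase II tail, Mrps31, a protein of the mitochondrial ribosome, and Psmd11, of the proteasome lid, stood at 4.10, 4.12 and 4.08.

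The gene lists of constitutive functions lay at this end throughout. All 31 proteasome subunits were called for H3K4me3, with a median balance of 3.70 and a range from 2.18 (Psma7) to 5.13 (Psma2), beside 63.6% and a median of 1.94 for all genes with a promoter region. All 20 cytosolic tRNA synthetases were called, with a median of 3.45, from Kars at 2.18 to Tars at 4.19. Among cytosolic ribosomal proteins 75 of 77 were called (median 3.11), and Rps15 (0.92) was among those not called. The 17 glycolytic enzymes were all called (median 3.08), lowest for Eno2, the neuronal enolase, at 1.17. Among 29 drivers of the cell cycle 28 were called (median 3.24), and cyclin D2 (Ccnd2) was not, at 0.80. Of 28 histone genes of cluster 1 with a region 26 were called (median 2.55), but they share 17 regions among them, and H4c3 (1.68) and H2ac1 (-0.86) were not called. Centring each library lowers the balance of every region by the same amount and turned none of these medians.

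Pluripotency factors also lay mostly at the H3K4me3 end. Of 27 genes 25 had a region, of which 21 were called for H3K4me3 and none for H3K27me3, with a median of 2.76. Of all genes with a promoter region 63.6% were called for H3K4me3, and their median was 1.94. With each library centred 19 pluripotency factors were called for H3K4me3 and 1, Esrrb, for H3K27me3. Gdf3, a growth factor of the TGF-beta family, and Pou5f1, the transcription factor OCT4 (3.57), were the highest. At Pou5f1 H3K4me3 was 1.47 and 1.95 and H3K27me3 was -1.52 and -2.19. Those not called with the values as deposited were Esrrb, Foxd3 (0.83), Prdm14 (0.92) and Tbx3 (0.98). Otx2, a factor of the primed state and the forebrain, passed narrowly at 1.02 and was not called with centring.

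The genes of the enzymes that write and erase the marks were examined next. All 15 H3K4 methyltransferase subunits with a region were called for H3K4me3 (median 3.33, from Cxxc1 at 1.90 to Kdm6a and Hcfc1 at 3.94), as were all 8 demethylases of the marks (median 3.27, from Kdm1b at 1.43 to Kdm5a at 4.34). Of 30 Polycomb genes 21 were called for H3K4me3 and 4 were balanced, a share of calls near the 63.6% of all genes. The core of Polycomb repressive complex 2 was high, with Eed at 4.25, Suz12 at 3.88 and Jarid2, a cofactor, at 3.45. The chromodomain genes Cbx2 and Cbx8 share a region of 50.9 kb that was balanced: H3K4me3 was 0.59 and 0.50 and H3K27me3 was 0.70 and 0.68, over 1049 and 1013 reads in replicate 1, with IgG-IgG at 0.05. Bmi1 (-0.08) and Yaf2 (-0.06) were balanced as well, and the lowest was Pcgf5 (-0.37), which was not called. Phf19, an accessory subunit of Polycomb repressive complex 2, was not called either, at 0.18.

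**Figure D4:**
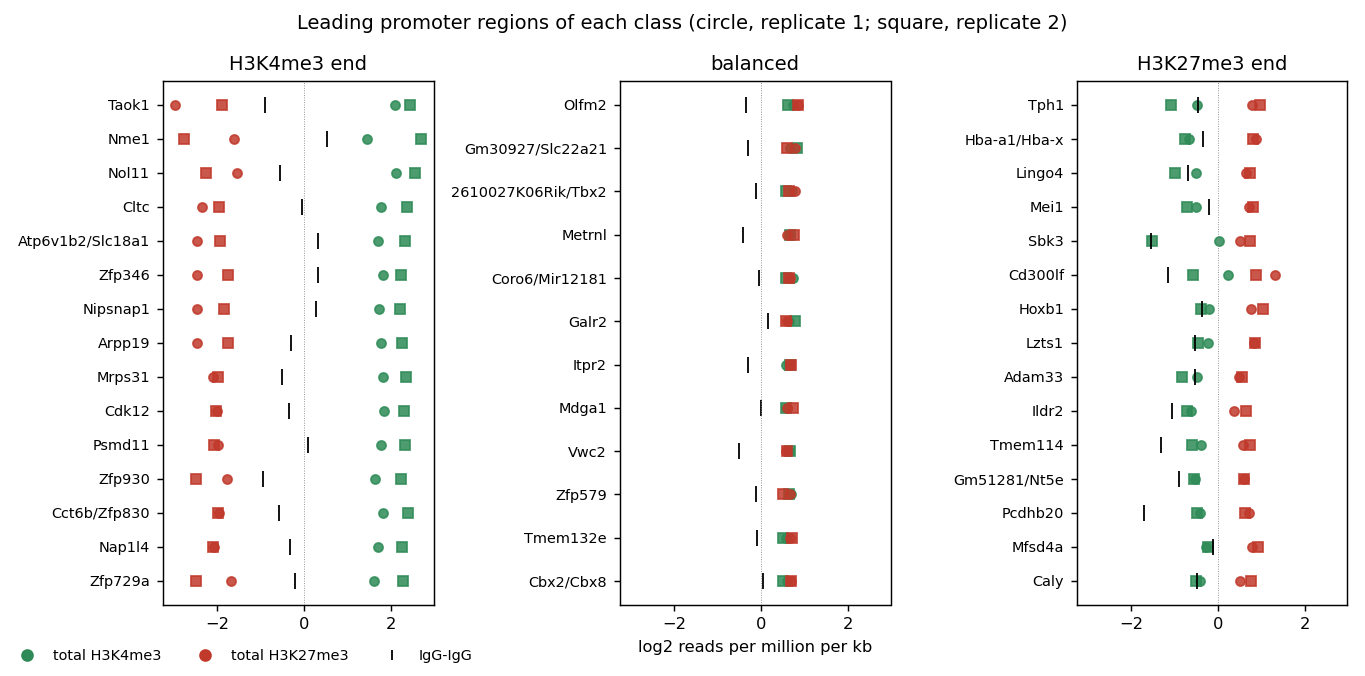
Log2 RPM per kb (horizontal axis) of total H3K4me3 (green), total H3K27me3 (red) and IgG-IgG (black bars) at the leading promoter regions of the H3K4me3 end, the balanced regions and the H3K27me3 end, with circles for replicate 1 and squares for replicate 2. As means of the replicates the marks lie between 4.03 and 4.69 units apart in the left panel and between 1.11 and 1.65 units apart, in the other order, in the right panel. In the middle panel all values of the marks lie between 0.50 and 0.87.

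The 12 balanced promoters with the highest mean of the totals were at Olfm2, Slc22a21, Tbx2, Metrnl, Coro6, Galr2, Itpr2, Mdga1, Vwc2, Zfp579, Tmem132e and the pair Cbx2 and Cbx8. Each mark lay between 0.50 and 0.87 in every library over these 12 regions, and IgG-IgG between -0.51 and 0.17. Their balances ran from -0.18 to 0.12 with standard errors between 0.111 and 0.127, and the regions were 3.75 to 50.9 kb wide. At Tbx2, a T-box repressor of limb and heart development, H3K4me3 was 0.73 and 0.57 and H3K27me3 was 0.79 and 0.65 over 26.0 kb. At Metrnl, which encodes a secreted meteorin-like factor, H3K4me3 was 0.67 and 0.68 and H3K27me3 was 0.60 and 0.77. At Galr2, a receptor for the neuropeptide galanin, H3K4me3 was 0.64 and 0.78 and H3K27me3 was 0.60 and 0.58. The values of the marks overlapped at Tbx2 and Metrnl, and at Galr2 both H3K4me3 values were slightly above both H3K27me3 values. The 12 were chosen for lying near 0 in E14, so a wider spread in other libraries follows from the choice. In the WT clones none was called. Tbx2 (-0.89 and -0.98), Tmem132e (-0.64 and -1.02), Mdga1 (-0.43 and -0.72) and the pair Cbx2 and Cbx8 (-0.60 and -0.68) leaned to H3K27me3, and Slc22a21 (1.13 and 0.40) to H3K4me3. Metrnl had 0.18 and -0.12 and Galr2 0.29 and 0.09.

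Of the 12, 8 lay on chromosome 11, as did 8 of the 15 leading regions of the H3K4me3 end. The rule that picked them asked for a high mean of the totals, and 73.2% of the chromosome 11 regions were above the median of all regions in this, against 44.7% to 53.5% on the other autosomes. The IgG-IgG median was also higher on chromosome 11 (-0.34) than on those (-0.78 to -0.49). The median balance of chromosome 11, 0.69, was inside the range of the other autosomes (0.34 to 0.90).

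Several families of developmental transcription factors had medians slightly below 0 and no calls. All 9 Pax genes, which pattern the neural tube, somites and sense organs, had negative balances, from -0.85 (Pax4, of pancreatic beta cells) to -0.16 (Pax8, of thyroid and kidney), with a median of -0.44. None was called, and Pax6 and Pax9 were balanced. At Pax6, the master regulator of eye development, H3K4me3 was 0.15 and 0.18 and H3K27me3 was 0.37 and 0.34. None of the 14 Nkx genes (median -0.25), the 15 LIM homeobox and Pou4 genes (median -0.43), the 15 proneural bHLH genes with a region (median -0.36) or the 6 Gata factors (median -0.31) was called in either direction, since none reached 1 log2 unit at an adjusted p under 0.05. Without the size threshold, the adjusted p (limma) was under 0.05 with H3K27me3 higher for 5 of 9 Pax, 4 of 14 Nkx, 6 of 15 LIM and Pou4, 6 of 15 proneural and 1 of 6 Gata genes, beside 985 of all 17300 genes (5.69%). At an unadjusted p under 0.05 these were 6, 4, 9, 7 and 2 genes, beside 1224 of all genes (7.08%). In each of these 5 families the median was negative in both replicates and in both clones. With each library centred the medians moved to between -0.97 (Nkx) and -1.16 (Pax), and 6 of 9 Pax, 7 of 14 Nkx, 12 of 15 LIM and Pou4, 11 of 15 proneural and 4 of 6 Gata genes were then called for H3K27me3, beside 2054 of all 17300 genes (11.9%).

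Hox genes set position along the body axis. Their 39 genes lay in 8 regions between 16.2 and 128.1 kb wide, so members of a cluster share 1 value, and all 8 balances were negative in both replicates and in both clones. The regions of Hoxb2 to Hoxb9 (-0.61), Hoxc4 to Hoxc13 (-0.59) and Hoxd3 to Hoxd13 (-0.39) held 8, 9 and 7 of the genes. The regions at cluster edges leaned further to H3K27me3, with Hoxa13 at -0.91, Hoxb13 at -0.80, Hoxd1 with Hoxd4 at -0.81 and Hoxb1 at -1.20. Hoxb1, a factor of the hindbrain, was called (chr11:96361351-96377550, 16.2 kb): H3K4me3 was -0.20 and -0.40, at the level of IgG-IgG (-0.36), and H3K27me3 was 0.77 and 1.04, with an adjusted p of 0.000195 by limma. Without the size threshold 32 of the 39 genes had an adjusted p under 0.05, and with each library centred all 39 were called for H3K27me3 (11.9% of all genes). The neighbouring region of Hoxb2 to Hoxb9 had similar H3K27me3 (0.83 and 0.87) but more H3K4me3 (0.20 and 0.28). That difference between neighbours was not tested.

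Families with members in both states were split by member. Of 37 Forkhead genes 13 were called for H3K4me3 and none for H3K27me3, beside 63.6% and 0.948% of all genes. With each library centred the counts were 7 and 17, beside 9181 and 2054 of 17300 genes. The 13 included the broadly used Foxk2 (3.42), Foxn2 (3.17) and the nodal effector Foxh1 (3.15), while Foxi1 (-0.92) and Foxd2 (-0.64), of the inner ear and kidney, were the lowest. Among 18 Sox genes Sox15 (3.53), Sox12 (3.29), Sox4 (1.89) and Sox11 (1.36) were called, and Sox10 (-0.50), of the neural crest, and Sox7 (-0.49), of endoderm and endothelium, were the lowest. Among 14 T-box genes with a region the only call with the values as deposited was Mga (3.87), the MAX dimerisation partner that carries a T-box, and Tbx5, of the forelimb and heart, was the lowest at -0.92. Frizzled receptors had a median of 0.72, above 0 but below the 1.94 of all genes. Of 10 Frizzled genes 3 were called for H3K4me3, with Fzd5 at 3.26 and Fzd7 at 2.22. Of 19 genes of their Wnt ligands 15 were negative in both replicates (median -0.38), 9 of them with an adjusted p under 0.05 by limma. Of these Wnt8b was called for H3K27me3 at -1.57. At Wnt8b H3K4me3 was -1.32 and -1.38 and H3K27me3 was 0.24 and 0.20, on 14 and 29 reads of H3K4me3. Under centring the Frizzled median was -0.0011 and the Sox median turned from 0.03 to -0.68. Then 9 of 14 T-box, 5 of 18 Sox and 12 of 19 Wnt genes and no Frizzled gene were called for H3K27me3, beside 2054 of 17300 genes.

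Signalling ligands and brakes of the cell cycle also had members in different groups. Of all genes with a promoter region 63.6% were called for H3K4me3, 0.948% for H3K27me3 and 4.98% were balanced. Among 18 BMP and GDF genes with a region Nodal (3.11), a ligand of the early embryo, Gdf9 (2.99), Gdf15 (2.74), Bmp4 (2.11) and Gdf1 (1.14) were called for H3K4me3, and Gdf10 (-0.96) and Gdf2 (-0.78) were the lowest, with a median of 0.13 that turned to -0.59 under centring. Of 7 CDK inhibitors Cdkn2d (3.08), Cdkn1a (2.64), Cdkn1b and Cdkn2c (1.14) were called for H3K4me3. Cdkn2b (-0.55), Cdkn1c (-0.30) and Cdkn2a (-0.17), brakes known from senescence and growth restraint, were not called. The 4 of 7 called for H3K4me3 is near the share of all genes. With each library centred 2 CDK inhibitors were called for H3K4me3 and 2, Cdkn1c and Cdkn2b, for H3K27me3. Potassium channel genes, which serve excitable cells, had a median of -0.23, and of 48 genes 3 were called for H3K4me3 (Kcnd1 the highest at 3.09), 1 for H3K27me3 (Kcns1, -1.02), and 5 were balanced. Under centring the counts for the 2 marks were 2 and 22, beside 9181 and 2054 of all 17300 genes, so the calls turned to H3K27me3.

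**Figure D5:**
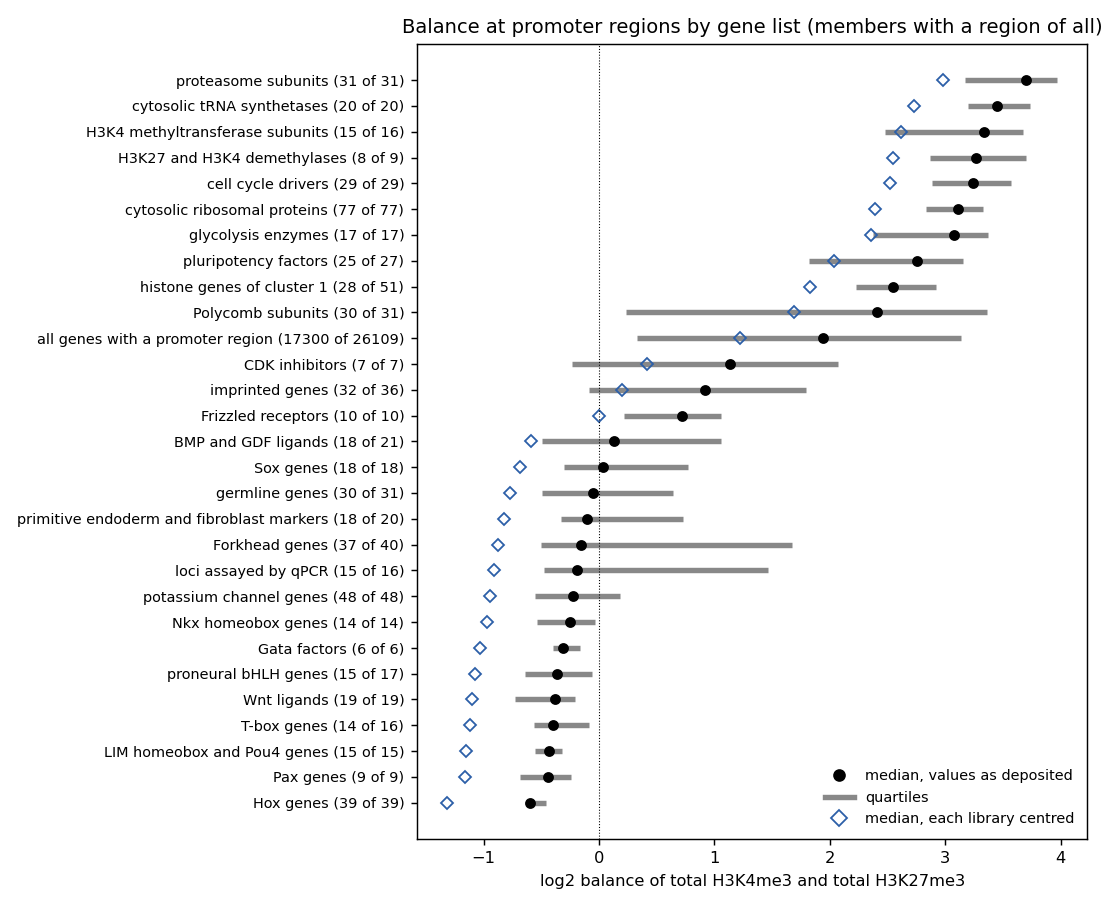
Log2 balance (horizontal axis) at the promoter regions of each gene list, with the median (black), the quartiles (grey) and the median with each library centred (open diamonds), and in brackets the members with a region of all members. Lists of constitutive functions have medians from 2.55 to 3.70 and families of developmental transcription factors from -0.59 (Hox) to 0.03 (Sox), beside 1.94 for all genes with a promoter region.

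The H3K27me3 end held few promoters, and 35 of the 6608 eligible promoter regions above the median signal were in it. The 15 lowest were at Tph1, Hba-a1 with Hba-x, Lingo4, Mei1, Sbk3, Cd300lf, Hoxb1, Lzts1, Adam33, Ildr2, Tmem114, Nt5e, Pcdhb20, Mfsd4a and Caly, with balances from -1.65 to -1.11, standard errors between 0.167 and 0.434 and adjusted p between 0.000156 and 0.0208 by limma. In the WT clones 15 of 15 were negative in both, and 5 were called. With all 9 E14 libraries in 1 fit, 2 of the 15 (Tph1 and the globin region) were still called and 555 regions in all.

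At Tph1, the enzyme that starts serotonin synthesis outside the brain (chr7:46665151-46669200), H3K4me3 was -0.47 and -1.07, H3K27me3 was 0.79 and 0.97 and IgG-IgG was -0.46. The region of the alpha-globin and zeta-globin genes Hba-a1 and Hba-x (chr11:32274751-32282250) had H3K4me3 at -0.66 and -0.75 and H3K27me3 at 0.87 and 0.81, with IgG-IgG at -0.35. This region spans the Hba-x promoter but overlaps that of Hba-a1 by 79 bp. At both loci H3K4me3 was at or below the control in each replicate, and the marks did not overlap. At Nt5e, the ecto-nucleotidase CD73, H3K4me3 was -0.52 and -0.55 and H3K27me3 was 0.60 and 0.61. Mei1, needed for meiotic recombination, stood at -1.38 and Cd300lf, an inhibitory receptor of myeloid cells, at -1.27 on 12 and 15 reads of H3K4me3. The call of Sbk3 (-1.38) rested on replicate 2, where H3K4me3 was -1.52 against 0.02 in replicate 1. Without the replicate 2 H3K4me3 library Sbk3 and Cd300lf were not called, and without that of H3K27me3 Ildr2 and Caly were not.

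Loci that the study had assayed by qPCR ran from -1.46 to 3.51, and since the study chose them their direction is no independent evidence. The study lists Dppa2, Klf4 and Gapdh as H3K4me3-only, Gm6116 and Meis2 as H3K27me3-only and the others named here as bivalent. Of the bivalent loci, Rnf149 and Mfsd4a were nevertheless called here, for opposite marks. Of 16 loci 15 had a promoter region, of which 4 were called for H3K4me3 and 2 for H3K27me3, beside 63.6% and 0.948% of all genes. With each library centred the counts were 4 and 7, beside 9181 and 2054 of 17300 genes. Dppa2 (3.51), a gene of early embryos, Klf4 (2.76), the glycolytic gene Gapdh (2.74) and Rnf149 (2.59) were at the H3K4me3 end. At Gapdh H3K4me3 was 0.93 and 1.34 and H3K27me3 was -1.41 and -1.79. Gm6116 (-1.46) and Mfsd4a (-1.11) were at the H3K27me3 end, and at Gm6116 H3K4me3 was -0.58 and -0.99 and H3K27me3 was 0.58 and 0.76. Meis2, a homeobox gene, was near 0 (-0.19), with H3K4me3 at -0.14 and 0.11 and H3K27me3 at 0.27 and 0.06, unlike its H3K27me3-only class in the study. The study's qPCR read a single amplicon, and the values here are averages over a region of 21600 bp. Csf1 (-0.87), Lmo1 (-0.50), Tlx1 (-0.46), Colgalt2 (-0.46), Pou4f1 (-0.41) and Sox6 (-0.19) leaned to H3K27me3 by less than 1 unit, and Dlx3 leaned to H3K4me3 at 0.34. With each library centred, Csf1, Lmo1, Tlx1, Colgalt2 and Pou4f1 were also called for H3K27me3. At Mcmdc2 the replicates differed in sign (-0.16 and 0.84).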

How the data were processed

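Total H3K4me3 and total H3K27me3 were compared in 4 E14 libraries (2 replicates of each) at the regions of the K27-K4 list. According to the submitters' notes, reads were handled with Trim Galore 0.6.6, BWA 0.7.13, SAMtools 1.9, Picard 2.6.0, deepTools 3.5.0 and MACS2 on mm10 (GRCm38.p6). The study's methods name SeqMonk for the quantification. The values the authors deposited are log2 RPM per kb of region, relative to the mapped reads of each library. They kept reads mapped at a quality above 20, left duplicates in, extended reads by 200 bp and subtracted no IgG-IgG. The study's methods name EPIC2, with IgG-IgG as control, for the reChIP regions, but all edges of the listed regions lie on a grid of 150 bp, which is not the bin size stated there, so the settings behind this list are unclear. The list also holds more regions than the K27-K4 peaks that the study reports after filters and intersection of replicates. The shares given here therefore describe the list and not that peak set. In all libraries used 100% of values came out as whole reads within 0.05 reads, with 0 reads entered as 0.9, and the depths given are those recovered reads. Depth limits single regions, and the intervals and errors cover the spread of these libraries only. The tables also hold 32 columns of no sample of the series, which were not used.

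Balances were fitted with limma 3.58.1 in R 4.3.3 (variance trend, robust estimation, no block) and adjusted by Benjamini-Hochberg over 36235 regions. A call needed an absolute log2 balance above 1 and an adjusted p under 0.05. The count test foreseen for counts was not used, since the values are log2. With 2 replicates, p-values measure the spread between these samples. On simulated data for the E14 balance in 36235 regions, 54% of regions shifted by 1.5 log2 units were called, 82% at 2, 96% at 3 and 98% at 4, with 7 unchanged regions called. In it 200 regions were shifted and all others had a balance of 0, whereas 45.6% of regions were called in the data. The noise added to that of counting was set below the observed replicate spread. These rates therefore do not carry over directly to the E14 fit. In the labels the E14 replicate number goes with the sequencing batch and the clone number with the cell line, so numbers pair the libraries. The clone fit pooled the variance of all regions (prior degrees of freedom 72468). Deviations of same-numbered libraries from their group means correlated at -0.089 in E14 and -0.142 in the clones.

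RefSeq start sites, promoter sequences and sequence composition came from GRCm38.p6. A gene took the region overlapping its promoter by the most bases. Leading genes were protein-coding, with predicted Gm and Rik names left out, and with a mean of the 4 totals above the median: the 15 called with the highest balance, the 15 with the lowest, and the 12 balanced with the highest mean. The qPCR loci and the 2 highest and 2 lowest of each of 28 lists were also named, and further list members were named as exceptions after their values were seen. The members and lists were chosen with earlier results of these data known. Alternatives covered the scaling, the variance model, the threshold, the regions tested, the block, each library left out, the libraries in the fit, precision weights on recovered reads, the balanced range and the promoter width. Python 3.11.15 with numpy 2.4.6, pandas 2.3.3 and matplotlib 3.10.9 was used for the rest. Results for a few list members are not reported here.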

Additional observations from a re-analysis of the deposited data

Results flagged for a closer look

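Comparison of E14 with the WT clones picked out results in which both E14 replicates had one sign and both clones the other, and the difference between them was not tested. The only 2 regions called in opposite directions were both far from promoters. The region at chr14:58893301-58893750 had a balance of 1.22 in E14 (1.43 and 1.01) and stood at -2.36 in clone 57 and -1.10 in clone 58. The region at chr5:81623851-81624150 had -1.48 in E14 (-1.16 and -1.80) and 1.66 and 1.22 in the clones. Both are under 0.5 kb wide and lie more than 50 kb from a start site.

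Of 632 list members with a promoter region, 13 were positive in E14 and negative in the clones and 5 the reverse, together 2.85%, beside 417 of all 17300 genes with a promoter region (2.41%). Cyclin D2 (Ccnd2) had a balance of 0.80 in E14 (0.59 and 1.01) and -0.06 and -0.26 in the clones. Dlx3, a homeobox gene of skin and bone, had 0.34 in E14 (0.30 and 0.39) and -0.59 and -0.55 in the clones. Wnt7b had 0.21 (0.17 and 0.25) and -0.77 and -0.54, and Nkx6-2 had 0.29 (0.35 and 0.23) and -0.03 and -0.32. Vwc2, a balanced gene, had 0.081 (positive in both) and -0.01 and -0.35. With each library centred the E14 balance was 0.08 for Ccnd2, -0.38 for Dlx3, -0.51 for Wnt7b, -0.43 for Nkx6-2 and -0.64 for Vwc2.

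Slc22a18, an imprinted gene, was the only one of these called in E14, at 1.55 (1.46 and 1.64), and had -0.20 and -0.32 in the clones. With each library centred it was at 0.83 and not called. Others positive in E14 included Kcnj4 at 0.39, Tbx10 at 0.36, Neurog3 at 0.35, Pdgfra at 0.31, Taf7l at 0.22, Atoh1 at 0.19 and Bmp6 at 0.13. Among those negative in E14 and positive in the clones were Foxi3 at -0.61, Stk31 at -0.24, Dab2 at -0.21 and Cdkn2a at -0.17. The clone values of Cdkn2a were 0.61 and 0.18, and those of Foxi3 0.37 and 0.15.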

How the results depend on the processing

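The E14 count of regions with H3K4me3 higher (14572) stayed within 1.5 times under every alternative except the restriction to regions shared with K4-K27, which tests fewer regions (9689). The count with H3K27me3 higher (1967) was 8437 with each library centred, 9987 with quantile normalisation, 3537 with no threshold on the log2 balance, 989 in regions shared with K4-K27 and 555 with all 9 E14 libraries in 1 fit. The replicate block gave 14568 and 1974 and changed no call on a named end gene, and precision weights gave 14702 and 1907. Leaving out each library in turn gave 13264 to 14957 and 1623 to 2715, with medians between 0.57 and 0.67, and each replicate alone gave medians of 0.55 and 0.71. The E14 median balance was -0.11 with centring, -0.20 with quantile normalisation, 0.73 in regions shared with K4-K27 and 0.73 where a total exceeded IgG-IgG in both replicates.

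In the WT clones, the count with H3K4me3 higher (13567) was 9007 in regions shared with K4-K27, and the count with H3K27me3 higher (1733) was 10162 with centring, 11986 with quantile normalisation, 896 above the lowest quartile of the totals and 645 in regions shared with K4-K27. The block gave 13875 and 1619. Leaving out each library gave 5171 to 16935 and 168 to 2585. The median (0.73) was -0.17 with centring and -0.35 with quantile normalisation, and 0.43 to 1.08 without single libraries. For all counts that moved, the cause was not tested.

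Balanced regions numbered 6252 at 0.5 units, with 36.9% at promoters. Promoters of 5 kb either side held 68.7% of the H3K4me3 end, 44.7% of balanced regions and 24.7% of the H3K27me3 end, promoters from 1 kb upstream to 100 bp downstream held 7.57% of the last, and the highest and lowest 5% of regions had 90.0% and 8.72%. The number of lists with a median above 0 was 15 of 28, and 12 with centring, which turned the medians of Sox genes (-0.68), Frizzled receptors (-0.0011) and BMP and GDF ligands (-0.59). The narrower promoter turned none.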

Other observations

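Genes of the germline, most of which are silent in embryonic stem cells, were also examined. Of 31 genes 30 had a promoter region, with a median balance of -0.06, and 6 were called for H3K4me3 and 1 for H3K27me3, beside 63.6% and 0.948% of all genes with a promoter region. With each library centred the median was -0.77 and the counts were 4 and 12. Sycp3, of the synaptonemal complex (3.22), Tex14, of the intercellular bridge (2.80), Zcwpw1 (2.26) and the recombinase Dmc1 (2.16) were at the H3K4me3 end. At Sycp3 H3K4me3 was 1.15 and 1.29 and H3K27me3 was -1.11 and -2.89. Piwil1, a binder of piRNAs, was called for H3K27me3 at -1.01, with H3K4me3 at -0.69 and -1.03 and H3K27me3 at 0.32 and -0.02, and in the clones it was negative in both (-0.95 and -0.78).

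Imprinted genes, of which 1 parental copy is silenced, reached both ends. Of 36 genes 32 had a region (29 distinct regions), with a median of 0.92, beside 1.94 for all genes with a promoter region. For H3K4me3 16 were called and for H3K27me3 1, beside 63.6% and 0.948% of all genes. Under centring the median was 0.20 and the counts were 9 and 7, beside 9181 and 2054 of all 17300 genes. The antisense transcript Kcnq1ot1 (3.64) and Zrsr1 (2.99) were the highest, and Th (-1.37), Grb10 (-0.86) and Dlk1 (-0.70) the lowest. At Kcnq1ot1 H3K4me3 was 1.15 and 1.52 and H3K27me3 was -2.20 and -2.41, and at Th, the tyrosine hydroxylase gene, H3K4me3 was -0.74 and -1.23 and H3K27me3 was 0.30 and 0.47. H19 was balanced at 0.09 with both marks close to IgG-IgG: H3K4me3 was -0.20 and -0.76, H3K27me3 was -0.45 and -0.68 and the control was -0.70. The library values do not separate the parental copies.

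On the X chromosome the median IgG-IgG was -1.53, below the autosomes (-0.78 to -0.34), and of its 1026 regions 8.48% were called for H3K27me3 and 2.14% were balanced, beside 5.34% and 5.40% of 35203 autosomal regions.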
